A study of Mus musculus with 10 samples.

Results

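The control embryoid bodies (EBs) at day 6 of differentiation were compared with the control EBs at 24 h. EBs are 3-dimensional aggregates of mouse embryonic stem (ES) cells that differentiate once they are cultured without leukemia inhibitory factor (LIF). The question was which transcripts differ between these early stages of differentiation, when no knockdown is present. Of 22878 gene symbols in the transcript tables, 9385 had an RPKM (read number divided by transcript length and by library size) of 3 or more at day 6, at 24 h or at both, and these made up the comparison. The minimum acted on values of the same 2 libraries: Gata6 lay just inside it with 3.59 at day 6, and Foxa2, a forkhead factor of endoderm, just outside with 2.96. A gene that reached the minimum in either library alone was by construction higher in that library, which bears on the counts of every list below.

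Both libraries came from R1 mouse ES cells carrying a lentiviral hairpin against luciferase (shLuc), a sequence with no counterpart in the mouse genome. R1 cells were kept on irradiated mouse embryonic fibroblasts in serum and LIF, then passaged on gelatin with a GSK3 inhibitor to remove the feeders, and EBs were formed in low-attachment dishes without LIF. The series held 10 polyA RNA-Seq libraries, shLuc and shSmyd5 (a hairpin against the histone methyltransferase gene Smyd5), each as ES cells and as EBs after 24 h and 6, 10 and 14 days. Each condition was sequenced in 1 library, so the difference between day 6 and 24 h had no replicate check and no test was possible. Folds were log2 of RPKM plus 0.1 at day 6 less the same at 24 h. The 95% interval in brackets is the exact binomial interval of their reads, with 0.1 added to the RPKM at each limit as well. It covers counting error only and describes these libraries, not the conditions. A whole EB was measured, so fewer cells of a type and less RNA per cell cannot be told apart.

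When ES cells leave self-renewal in EBs, they pass through a state that resembles the epiblast of the peri-implantation embryo. Naive factors such as Klf4 and Zfp42 are lost there, while the core factors Pou5f1, Sox2 and Nanog are still made. Outer cells of the aggregate form primitive endoderm, which matures into visceral endoderm and secretes serum proteins, and inner cells can form a primitive streak, marked by T (brachyury), from which mesoderm and definitive endoderm arise.

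Promoters of 4 genes with a place in the results are shown, from 250 bases before to 50 bases after the start of the gene. They came from RefSeq on the GRCm38.p6 build, and each was searched on both strands for a short motif of a factor class known at genes of that kind. Capitals mark the match. T at chr17:8434173-8434472 (plus strand) held the TCF/LEF core CTTTGA, on the opposite strand, 234 bases before the start. Nanog at chr6:122707239-122707538 (plus strand) held a SOX-POU composite, CATTGT followed after 1 base by ATGCAAA, on the opposite strand, 75 bases before the start. Afp at chr5:90490464-90490763 (plus strand) held the FOXA core TGTTTGC 55 bases before the start. Bnip3 at chr7:138909457-138909756 (minus strand) held the hypoxia response core ACGTG 108 bases before the start, within a CACGTG E-box and so on both strands, with the opposite-strand match in capitals.
T: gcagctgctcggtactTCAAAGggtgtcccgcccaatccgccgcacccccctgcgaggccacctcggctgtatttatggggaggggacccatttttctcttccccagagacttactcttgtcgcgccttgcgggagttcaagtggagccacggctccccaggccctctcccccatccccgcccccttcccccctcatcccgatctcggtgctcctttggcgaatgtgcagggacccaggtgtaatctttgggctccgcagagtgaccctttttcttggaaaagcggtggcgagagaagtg
Nanog: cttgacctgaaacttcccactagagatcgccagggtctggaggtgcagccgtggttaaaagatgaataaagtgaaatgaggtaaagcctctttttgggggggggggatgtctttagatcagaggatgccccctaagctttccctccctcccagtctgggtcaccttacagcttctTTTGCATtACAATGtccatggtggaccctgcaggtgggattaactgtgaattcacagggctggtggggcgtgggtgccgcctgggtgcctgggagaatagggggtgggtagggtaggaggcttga
Afp: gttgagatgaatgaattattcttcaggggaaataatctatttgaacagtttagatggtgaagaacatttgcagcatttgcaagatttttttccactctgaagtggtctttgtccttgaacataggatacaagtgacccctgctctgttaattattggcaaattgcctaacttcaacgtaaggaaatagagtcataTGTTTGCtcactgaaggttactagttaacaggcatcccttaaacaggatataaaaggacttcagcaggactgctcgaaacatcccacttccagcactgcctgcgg
Bnip3: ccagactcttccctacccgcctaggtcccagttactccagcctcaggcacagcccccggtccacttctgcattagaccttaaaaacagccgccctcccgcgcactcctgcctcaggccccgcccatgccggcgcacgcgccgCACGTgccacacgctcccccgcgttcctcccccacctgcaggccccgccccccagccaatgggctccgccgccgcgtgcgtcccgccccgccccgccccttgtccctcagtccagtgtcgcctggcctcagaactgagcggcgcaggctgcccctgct
Among all 32851 promoters of this length in the table, 16.003% held CTTTGA, 5.07% held TGTTTGC and 19.6% held ACGTG. The SOX-POU composite stood in 2 promoters (0.00609%), both listed for Nanog. A match is a description of the sequence and was not tied to binding.

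The day 6 library held 43377815 reads in genes and the 24 h library 11119729, which was 67.2% at day 6 and 57.9% at 24 h of the library size that the RPKM values imply. The day 6 shLuc file, like those of days 10 and 14, carried another processing name than the other 7 files, and this cannot be told apart from time. Smyd5, the target of the knockdown, had an RPKM of 29.7 (ES cells), 10.7 (24 h), 15.4 (day 6), 25.0 (day 10) and 13.1 (day 14) in shLuc libraries. In shSmyd5 libraries it had 4.51 (ES cells), 0.891 (24 h), 0.492 (day 6), 9.14 (day 10) and 6.88 (day 14), below shLuc at each of the 5 stages. The 7159 genes that reached an RPKM of 3 in both EB libraries had a median log2 fold of 0.23, and whether this came from the scale or from the cells cannot be told apart.

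At day 6, 2583 genes (27.5% of those compared) were at least 2-fold higher than at 24 h and 678 (7.22%) were at least 2-fold lower. At 4-fold these counts were 862 higher and 206 lower, and at 16-fold 149 higher and 43 lower. An RPKM of 3 was reached only at day 6 by 1897 genes and only at 24 h by 329. Of the 2-fold genes 79.2% were higher at day 6. This split depended on the scale, being 68.2% (2011 higher, 936 lower) after centring on the median and 58.9% (1696 higher, 1183 lower) with TMM scaling, which moved each log2 fold by -0.39. The median log2 fold of all genes compared was 0.41.

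**Figure D1:**
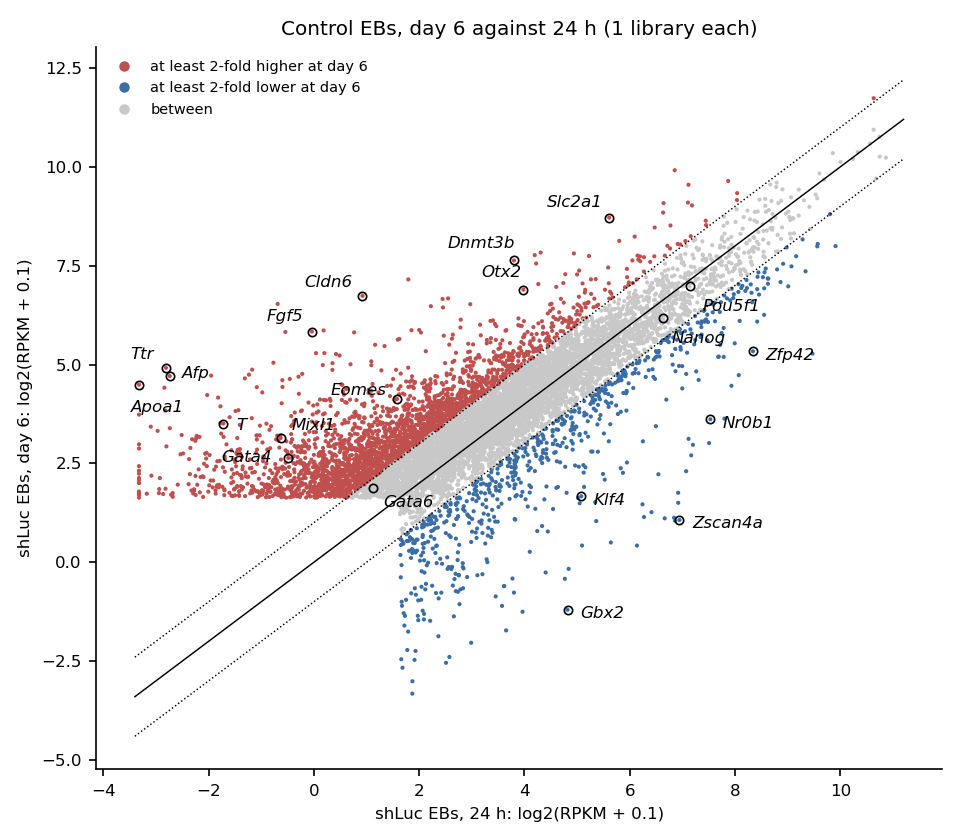
RPKM plus 0.1 on the log2 scale in control EBs, day 6 on the vertical axis and 24 h on the horizontal axis, 1 point for each of 9385 genes. Red points are at least 2-fold higher at day 6 (2583), blue points at least 2-fold lower (678) and dotted lines mark 2-fold. Ttr, Afp, Fgf5 and T lie far above the diagonal, Nr0b1, Klf4, Zscan4a and Gbx2 far below it, and Pou5f1 and Nanog near it.

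At an RPKM of at least 10 in either library, the largest folds belonged to serum carriers of the endoderm and to membrane proteins. Apoa1, the main protein of high density lipoprotein (chr9:46036663-46038549 of mm9, the build of all gene positions except promoters), had an RPKM of 22.4 (1425 reads) at day 6 and 0 reads at 24 h. It was at least 141-fold higher, counted against 3 reads at 24 h. Cldn7, a claudin of epithelial tight junctions, had 21.2 at day 6, against 0.0397 (1 read) at 24 h, a log2 fold of 7.25 (6.05 to 7.72). Car4, a membrane-bound carbonic anhydrase, had 92.5 at day 6 and 0.521 at 24 h, a log2 fold of 7.22 (6.55 to 7.94). Also among the 12 highest were Ttr, Afp and Apoc2, the semaphorin Sema6a, Prom1 (CD133), Vrtn, the ubiquitin ligase Rnf128 and the kinesin Kif1a, with log2 folds between 6.25 and 7.73.

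The lowest folds were led by the homeobox gene Gbx2, with an RPKM of 0.335 at day 6, against 28.1 at 24 h, a log2 fold of -6.02 (-6.36 to -5.68). Of the 12 lowest, 5 belonged to the Zscan4 cluster (Zscan4a, Zscan4d, Zscan4c, Zscan4f and Zscan4e), and Gm2016, Gm5662 and Gm6607 are predicted genes. Zscan4 genes and Gm2016 and Gm5662 have near-identical copies, so how their reads divide among copies is uncertain. The rest were Aard (-5.71), the glutathione transferase Gsta3 (-5.37) and Inhbb (-5.21), which encodes the beta B subunit of activin. Gbx2 had an RPKM of 54.8 in shLuc ES cells, so its high side spanned ES cells and 24 h.

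All 26 self-renewal and pluripotency genes on the list used here were measured above the minimum. At day 6, 16 of them were at least 2-fold lower than at 24 h (61.5%, against 7.22% of all genes compared). Only 2 were higher (7.69%, against 27.5%). The median log2 fold was -1.24, against 0.41 for all genes compared. The core factors lay within 2-fold. Pou5f1 (OCT4, chr17:35642982-35647721) had an RPKM of 126 at day 6, against 141 at 24 h, a log2 fold of -0.16 (-0.21 to -0.11). Nanog, whose promoter is shown above (chr6:122657507-122664651), had 71.8 at day 6 and 99.0 at 24 h (log2 fold -0.46 (-0.53 to -0.40)), and Sox2 had 228 at day 6 and 306 at 24 h (-0.42). The 3 core genes were thus a little lower at day 6 and still abundant.

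Several naive genes were lower by far more, though not all. Zfp42 (REX1), a zinc finger marker of naive ES cells, had an RPKM of 40.3 at day 6, against 324 at 24 h, a log2 fold of -3.004 (-3.05 to -2.95). Klf4 had 3.08 at day 6 and 33.7 at 24 h (-3.41 (-3.54 to -3.28)). Nr0b1 (DAX1), an orphan nuclear receptor, had 12.2 at day 6 and 185 at 24 h (-3.91 (-3.998 to -3.83)), and Dppa2 had 8.6 at day 6 and 139 at 24 h (-3.995 (-4.09 to -3.90)). Esrrb, an orphan receptor of the naive network, lay at the edge of 2-fold with 30.8 at day 6 and 61.9 at 24 h (-1.005 (-1.06 to -0.95)). The 2 members that were higher were Lin28a, which blocks let-7 maturation (71.7 at day 6 and 14.7 at 24 h), and Dppa3 (23.1 at day 6 and 5.28 at 24 h).

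Over the shLuc course Pou5f1 had an RPKM of 929.8 (ES cells), 141 (24 h), 126 (day 6), 26.4 (day 10) and 7.56 (day 14). Zfp42 had 38.3 (ES cells), 324 (24 h), 40.3 (day 6), 5.65 (day 10) and 8.1 (day 14), and so was highest at 24 h. The highest shLuc level was in ES cells for 17 of the 26 members, at 24 h for 7 and at day 6 for Dppa3 alone, whereas of all 9385 genes compared it was in ES cells for 2816, at 24 h for 1543 and at day 6 for 1529. Levels in the shLuc ES library moved with base composition (rank correlation of the fold over 24 h with GC content 0.765, across genes), and the part of this in the courses given here was not tested.

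Primed epiblast genes had the opposite direction. Of 16 listed and measured, 11 were at least 2-fold higher at day 6 and 1 was lower, with a median log2 fold of 2.39. The shares were 68.75% and 6.25%, against 27.5% and 7.22% of all genes compared. Fgf5, Pou3f1 and Lef1 passed the minimum only through day 6 and Etv4 only through 24 h, so the minimum set their direction. Fgf5, the classical marker of the post-implantation epiblast (chr5:98683203-98706049), had an RPKM of 56.9 at day 6, against 0.874 at 24 h, a log2 fold of 5.87 (5.47 to 6.29). Dnmt3b, the de novo DNA methyltransferase of the epiblast (chr2:153475186-153513466), had 198 at day 6 and 13.8 at 24 h (3.83 (3.75 to 3.92)). Otx2, a homeobox factor that directs exit from the naive state, had 119 at day 6 and 15.7 at 24 h (2.91 (2.79 to 3.04)), and the POU factor Pou3f1 (OCT6) had 20.4 at day 6 and 1.95 at 24 h (3.32). Sall2 and Lef1 were higher by log2 folds of 3.92 and 3.77. The 1 lower member was Etv4, an ETS factor that answers FGF signaling (1.94 at day 6 and 11.1 at 24 h).

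Of the 16 members, 8 had their highest shLuc level at day 6 of the course, against a share of 16.3% of all genes compared. Fgf5 had an RPKM of 0.215 (ES cells), 0.874 (24 h), 56.9 (day 6), 3.73 (day 10) and 1.65 (day 14). Dnmt3b had 41.1 (ES cells), 13.8 (24 h), 198 (day 6), 23.4 (day 10) and 6.11 (day 14). Both were again lower at day 10, and the summed RPKM of the list was 241 (ES cells), 269 (24 h), 712 (day 6), 285 (day 10) and 147 (day 14). DNA methylation enzymes as a group were mixed: of 11 measured, Dnmt3b and Uhrf2 were higher, and Tet1 (19.4 at day 6 and 58.7 at 24 h), Tet2 (6.86 at day 6 and 39.1 at 24 h) and Dnmt3l (9.17 at day 6 and 32.9 at 24 h) were lower. Tet1 and Tet2 oxidize methylated cytosine and Dnmt3l is a cofactor of de novo methylation in germ cells and ES cells. The maintenance enzyme Dnmt1 was within 2-fold.

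**Figure D2:**
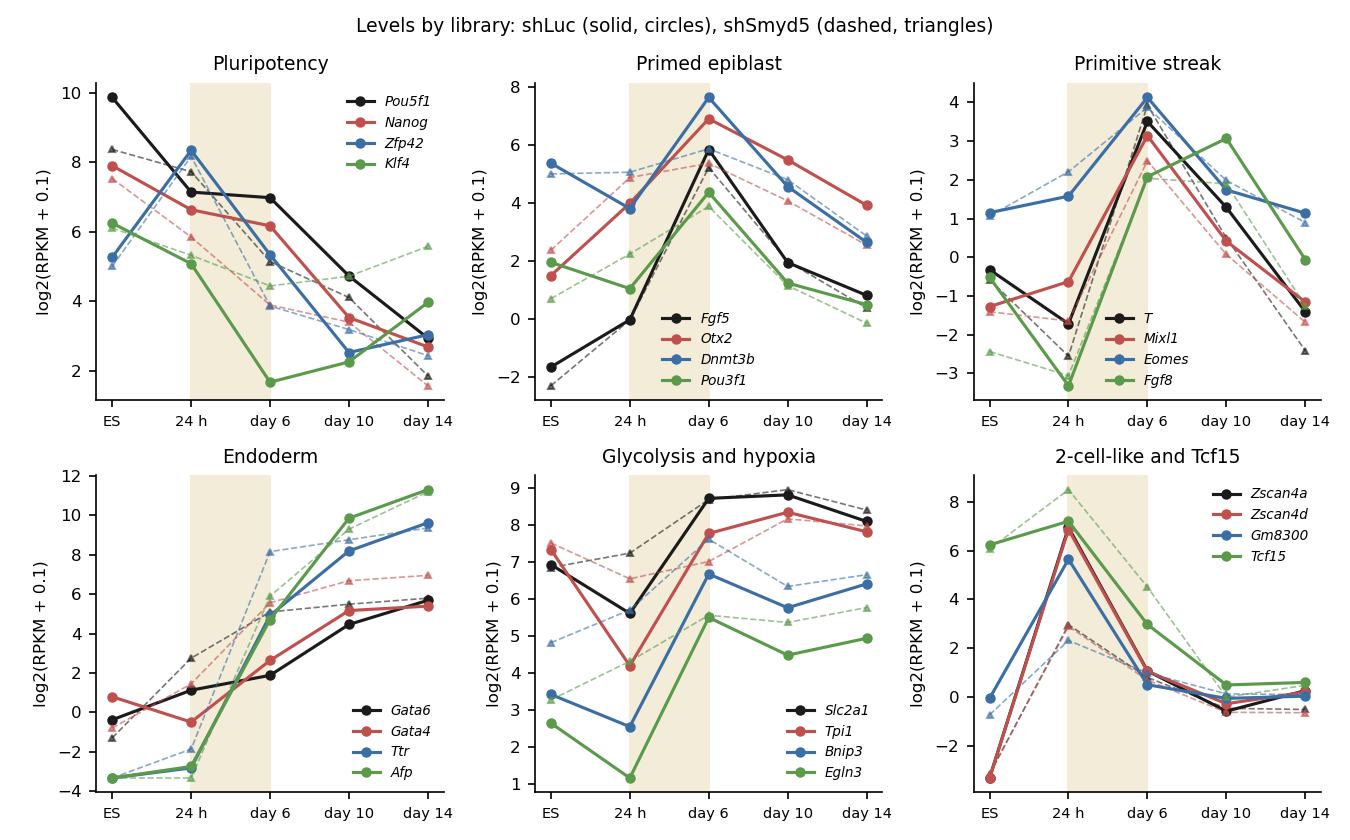
RPKM plus 0.1 on the log2 scale in each library for 24 genes in 6 groups, with shLuc as solid lines and circles, shSmyd5 as dashed lines and triangles, and the step from 24 h to day 6 shaded. Fgf5, Dnmt3b, Otx2 and T peak at day 6, Ttr and Afp climb up to day 14, and Zscan4a is high in the shLuc 24 h library (123).

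Genes of 2-cell-like cells, a rare state of ES cell cultures that resembles the 2-cell embryo, were high in the 24 h library. Of 15 listed, 7 reached the minimum, each through its 24 h value, and these 7 were lower at day 6, with a median log2 fold of -5.42. Zscan4a had an RPKM of 2.00 at day 6, against 123 at 24 h (log2 fold -5.88 (-6.04 to -5.71)), and Gm8300 had 1.32 at day 6 and 49.8 at 24 h (-5.14). The 6 Zscan4 copies measured had 0 reads in shLuc ES cells. In shSmyd5 EBs Zscan4a had 7.67 at 24 h, so the peak of this family was largest in the shLuc 24 h library among the 10. The peak rests on that 1 library.

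Most primitive streak genes measured were near 0 at 24 h. Of 22 listed, 9 reached the minimum, with a median log2 fold of 3.77. Of these, 7 were at least 2-fold higher at day 6 and 1 was lower. All but Nodal and Fgf17 reached the minimum only through day 6, so for those a higher day 6 level was required. T (chr17:8627288-8635361), the T-box factor that drives streak and notochord formation, had an RPKM of 11.3 at day 6, against 0.204 at 24 h, with 1491 reads at day 6 and 8 at 24 h, a log2 fold of 5.23 (4.50 to 5.92). Mixl1, a homeobox factor of mesendoderm, had 8.74 at day 6 and 0.546 at 24 h (3.77 (3.27 to 4.30)), and the T-box factor Eomes had 17.4 at day 6 and 2.89 at 24 h (2.55 (2.36 to 2.75)). Fgf8, a streak ligand, had 320 reads at day 6 and 0 at 24 h and was at least 31.7-fold higher, and Lhx1, a LIM factor of the anterior streak, had 595 at day 6 and 0 at 24 h and was at least 59.0-fold higher. Both fold bounds were counted against 3 reads.

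Within the streak list Nodal, the ligand that induces the streak, stood apart with 7.3 at day 6 and 6.76 at 24 h, a log2 fold of 0.11 (-0.08 to 0.30). Fgf17 was lower (2.53 at day 6 and 5.65 at 24 h). The other 13 members stayed under an RPKM of 3 in both libraries, among them Mesp1, the entry factor of cardiac mesoderm (1.77 at day 6 and 0.0483 at 24 h), Wnt3 (1.6 at day 6 and 0.0836 at 24 h) and Gsc (0.317 at day 6 and 0 at 24 h). T had an RPKM of 0.7 (ES cells), 0.204 (24 h), 11.3 (day 6), 2.34 (day 10) and 0.277 (day 14), so the day 6 library held its highest level in the shLuc course. Of 7 promoters of streak genes in the table, 2 held the TCF/LEF core shown above for T, against 16.003% of all promoters.

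Early mesoderm beyond the streak was mostly under the minimum. Of 29 genes present in the tables, 5 reached an RPKM of 3, with 1 higher and 3 lower at day 6. Rspo3, a Wnt agonist, had 3.09 at day 6 and 0.304 at 24 h (2.98 (2.37 to 3.595)). Tcf15, a bHLH factor of paraxial mesoderm that ES cells also express, had 7.73 at day 6 and 147 at 24 h (-4.23 (-4.37 to -4.09)), Tbx3 had 2.91 at day 6 and 20.7 at 24 h, and Bmp4 had 3.67 at day 6 and 21.3 at 24 h. The 3 lower members were all expressed in shLuc ES cells, at RPKM 75.0, 71.8 and 50.2. Kdr, the VEGF receptor of the first vascular mesoderm, had 1.65 at day 6 and 0.105 at 24 h, under the minimum.

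Visceral endoderm carriers and uptake receptors were the list with the highest median. Of 26 listed, 16 reached the minimum and each of these was at least 2-fold higher at day 6, with a median log2 fold of 4.86. Apoa1, Apoc2 and Apoa4 had 0 reads at 24 h. All but Apoe, Spink3 and Dab2 passed the minimum only through their day 6 value, which again required a higher level there. Afp (alpha-fetoprotein, chr5:90919740-90937933, promoter shown above) had an RPKM of 26.1 at day 6, against 0.0499 at 24 h, with 3514 reads at day 6 and 2 at 24 h (log2 fold 7.45 (6.54 to 7.95)). Ttr (transthyretin, a carrier of thyroid hormone and retinol-binding protein) had 30.1 at day 6 and 0.0426 at 24 h (7.73 (6.48 to 8.22)). Apoc2, the cofactor of lipoprotein lipase, had 538 reads at day 6 and 0 at 24 h, at least 53.3-fold higher.

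The smaller folds of this list belonged to genes already present at 24 h. Apoe had 214 at day 6 and 37.3 at 24 h (2.52 (2.42 to 2.62)), the protease inhibitor gene Spink3 had 91.7 at day 6 and 22.3 at 24 h (2.03 (1.81 to 2.26)), and the endocytic receptor Lrp2 (megalin) had 6.36 at day 6 and 0.966 at 24 h (2.60 (2.44 to 2.76)). Afp had an RPKM of 0 (ES cells), 0.0499 (24 h), 26.1 (day 6), 922 (day 10) and 2512 (day 14), and 15 of the 16 members had their highest shLuc level at day 10 or day 14. The summed RPKM of the 26 genes listed was 832 (ES cells), 71.3 (24 h), 584 (day 6), 4023 (day 10) and 7019 (day 14) in shLuc libraries. Day 6 thus lay far below days 10 and 14, and also below ES cells. Of 21 promoters of such genes in the table, 3 held the FOXA core (14.3%), against 5.07% of all promoters.

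Transcription factors of endoderm stood at low levels. Of 14 listed, 6 reached the minimum, 3 of them higher and 1 lower at day 6, with a median log2 fold of 1.56. Gata4 and Gata6 passed the minimum only through day 6 and Foxa1 only through 24 h, so the minimum itself set their direction. Gata4, a zinc finger factor of primitive endoderm (chr14:63817759-63890529), had 6.12 at day 6 and 0.614 at 24 h (3.12 (2.72 to 3.54)). Its partner Gata6 had 3.59 at day 6 and 2.09 at 24 h, a log2 fold of 0.75 (0.49 to 1.02), short of 2-fold, which became 0.37 with TMM scaling and 0.15 once folds were freed of a trend on base composition and transcript length. Foxa1 was lower, with 1.4 at day 6 and 3.04 at 24 h (-1.07 (-1.32 to -0.80)). Foxa2 (2.96 at day 6 and 0.0979 at 24 h), Hnf4a (2.56 at day 6 and 0.442 at 24 h) and Sox17 (1.29 at day 6 and 0.383 at 24 h) had higher values at day 6 but stayed under the minimum. Gata6 had an RPKM of 0.673 (ES cells), 2.09 (24 h), 3.59 (day 6), 21.9 (day 10) and 51.3 (day 14).

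Basement membrane and parietal endoderm genes were also higher, 9 of 12 measured (75.0%, against 27.5% of all genes compared). None was lower, and the median log2 fold was 1.81. Col4a2 and Serpinh1 passed the minimum only through day 6, which required a higher level there. Col4a2 had 9.87 at day 6 and 1.07 at 24 h (3.09 (2.86 to 3.33)), its partner chain Col4a1 had 22.1 at day 6 and 4.33 at 24 h (2.33 (2.20 to 2.45)), and Serpinh1, the collagen chaperone, had 18.9 at day 6 and 2.97 at 24 h (2.63 (2.39 to 2.88)). Nid1, a linker of laminin and type IV collagen, was the lowest member with 9.46 at day 6 and 15.3 at 24 h (-0.68 (-0.76 to -0.60)). With TMM scaling Nid1 passed 2-fold lower.

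Genes of the epithelial to mesenchymal transition, a list that holds epithelial and mesenchymal members, were mostly higher. Of 27 listed, 20 were measured, 13 of them higher at day 6 (65.0%, against 27.5% of all genes compared). Only 1 was lower, and the median log2 fold was 1.64. The median 24 h RPKM of the 20 was 2.01. Many members, Cldn7, Cldn6 and Cdh2 among them, thus passed the minimum only through day 6, which required a higher level there. After Cldn7, the claudin Cldn6 had 107 at day 6 and 1.8 at 24 h (5.82 (5.44 to 6.21)), and the keratins Krt19 and Krt18 were higher by log2 folds of 5.42 and 5.05. Both cadherins were higher: Cdh1 (E-cadherin) had 216 at day 6 and 70.8 at 24 h (1.61 (1.57 to 1.65)), and Cdh2 (N-cadherin) had 8.34 at day 6 and 0.527 at 24 h (3.75 (3.39 to 4.12)). The transition factor Zeb1, a repressor of Cdh1, was the 1 lower member with 0.645 at day 6 and 6.27 at 24 h (-3.10 (-3.29 to -2.90)), Vim had 32.9 at day 6 and 47.9 at 24 h, and Snai1 had 3.13 at day 6 and 2.23 at 24 h (0.47).

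Genes of glycolysis and of the response to low oxygen were higher at day 6 nearly without exception. Of 33 in the tables, 31 were measured, and 28 of these were at least 2-fold higher at day 6 with none lower, beside the 27.5% of all genes compared that were higher. Their median log2 fold was 2.44. Adm, which encodes the vasodilator peptide adrenomedullin, had 9.21 (821 reads) at day 6 and 0.0754 (2 reads) at 24 h (5.73 (4.64 to 6.42)). Slc16a3, the lactate exporter MCT4, had 38.4 at day 6 and 1.24 at 24 h (4.85 (4.50 to 5.21)), the prolyl hydroxylase Egln3 had 45.1 at day 6 and 2.14 at 24 h (4.34 (4.07 to 4.61)), and Bnip3, a mitophagy receptor (chr7:146082519-146101202, promoter shown above), had 102 at day 6 and 5.75 at 24 h (4.12 (3.92 to 4.33)). Adm, Slc16a3 and Egln3 passed the minimum only through day 6, which required a higher level there. The members within 2-fold were Pgam1 (0.42), Pfkp (0.06) and Kdm3a (-0.04).

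Abundant members of the list showed the same. The glucose transporter Slc2a1 (GLUT1) had 420.3 at day 6 and 48.7 at 24 h (3.11 (3.05 to 3.17)), triose phosphate isomerase Tpi1 had 218 at day 6 and 18.2 at 24 h (3.57 (3.45 to 3.70)), and Gapdh had 155 at day 6 and 31.9 at 24 h (2.28 (2.17 to 2.39)). Gapdh, often used as a reference gene, was thus not constant between these libraries.

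The 24 h level was the lowest of the 5 shLuc libraries for 24 of the 31 members (77.4%), against 39.0% of all genes compared. The same held for 10 of 12 basement membrane genes (83.3%), 7 of 8 Notch genes (87.5%) and 15 of 20 cholesterol synthesis genes. Tpi1 had an RPKM of 161 (ES cells), 18.2 (24 h), 218 (day 6), 324 (day 10) and 225 (day 14), and Slc2a1 had 122 (ES cells), 48.7 (24 h), 420.3 (day 6), 449 (day 10) and 273 (day 14). The summed RPKM of the list was 4314 (ES cells), 1106 (24 h), 5133 (day 6), 5365 (day 10) and 3318 (day 14). Of 40 promoters of these genes in the RefSeq table, 21 (52.5%) held ACGTG, against 19.6% of all promoters, and these stood at 18 of the 26 genes found there.

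**Figure D3:**
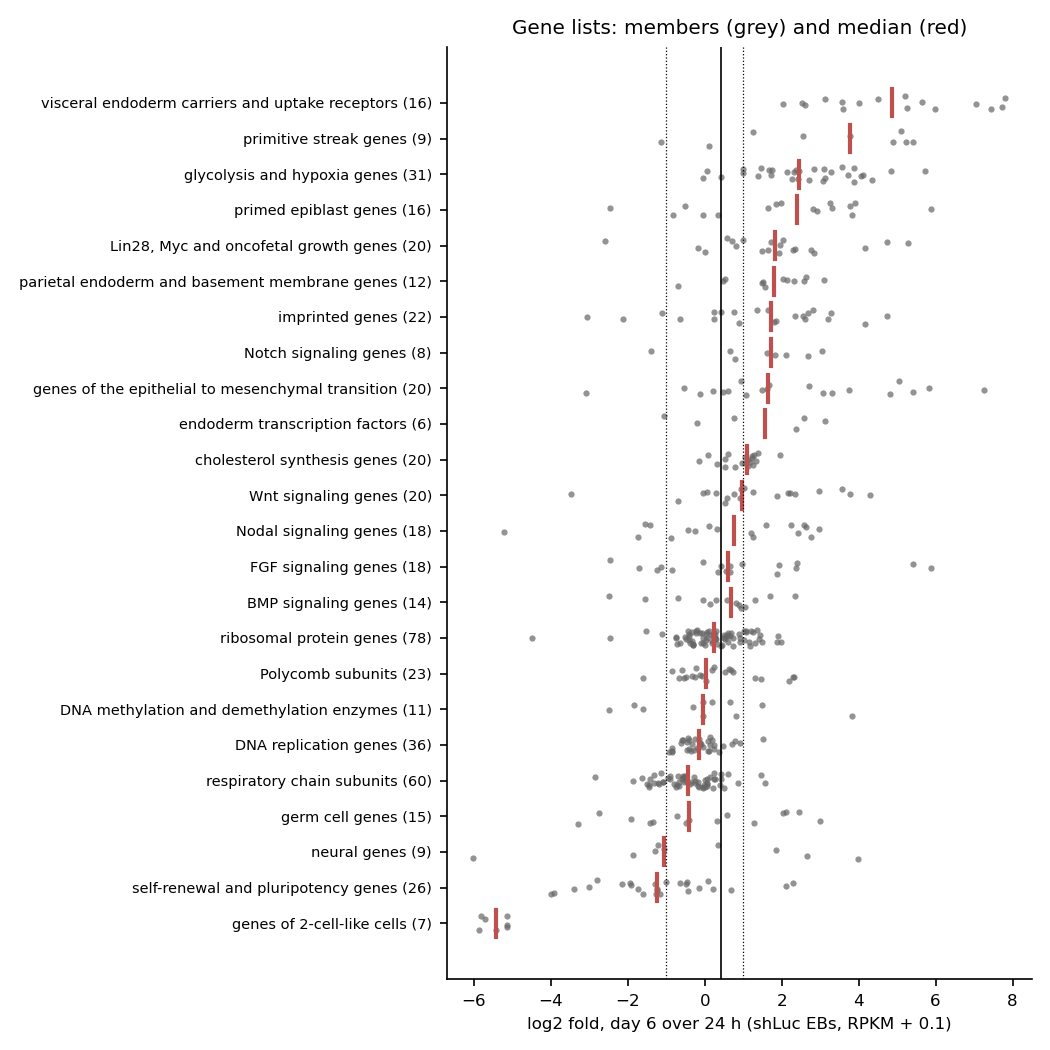
Log2 fold, day 6 over 24 h, of each measured member (grey) of 24 gene lists with the median in red and the number of members in brackets. The solid line is the median of all genes compared (0.41) and dotted lines mark 2-fold. Visceral endoderm carriers have the highest median (4.86) and genes of 2-cell-like cells the lowest (-5.42).

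Signaling genes differed within each pathway. In the Nodal pathway 9 of 18 measured genes were higher and 4 lower at day 6. The transducers Smad3 (7.82 at day 6 and 0.91 at 24 h) and Foxh1 and the receptor Acvr2b were higher, as was Furin (8.37 at day 6 and 1.15 at 24 h), a protease that processes the Nodal precursor. Foxh1 and Acvr2b had log2 folds of 2.25 and 2.41. Smad3 and Furin passed the minimum only through day 6, which required a higher level there. The target genes Lefty2 (-0.87) and Lefty1 (-0.26) were within 2-fold, and the ligands Gdf3 (-1.74) and Inhbb (-5.21) were lower. Gdf1 (1.26) shares its transcript with Cers1, and its reads are uncertain.

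Of 42 Wnt pathway genes 20 were measured, 10 higher and 1 lower. The receptors Fzd2 (9.14 at day 6 and 0.373 at 24 h, log2 fold 4.29 (3.83 to 4.75)) and Fzd8 (3.56) and the nuclear factor Lef1 (16.9 at day 6 and 1.14 at 24 h, 3.77 (3.41 to 4.15)) had the largest folds. Axin2, a general target of the pathway, had 3.51 at day 6 and 3.34 at 24 h, and Notum, a secreted inhibitor, was lower with 0.522 at day 6 and 6.78 at 24 h (-3.47 (-3.82 to -3.13)). Among 18 FGF genes, 6 were higher (33.3%, against 27.5% of all genes compared) and 4 lower (22.2%, against 7.22%): the ligands Fgf5 and Fgf8 led the higher ones, and Etv4 (-2.47), Spry4 (-1.70) and Fgf4 (-1.25) were lower. Fgf4 is the autocrine ligand of ES cells, and Spry4 and Etv4 are known targets of FGF signaling. Fgf5 and Fgf8 passed the minimum only through day 6 and Etv4 only through 24 h.

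BMP and Notch genes gave smaller counts. In the BMP list 4 of 14 (28.6%) were higher, a share near the 27.5% of all genes compared, led by the ligand Bmp2 (3.14 at day 6 and 0.538 at 24 h, 2.34 (1.85 to 2.86)), and 2 were lower, Bmp4 (-2.50 (-2.66 to -2.34)) and the inhibitor Smad7 (-1.56). Bmp2 passed the minimum only through day 6, which required a higher level there. With TMM scaling 2 of the 14 were higher and 3 lower. Of 8 Notch genes 5 were higher (62.5%), led by the target Hey1 (5.62 at day 6 and 0.59 at 24 h) and the receptors Notch3 (2.69) and Notch2 (2.11). The median 24 h RPKM of the 8 was 1.41. Most of them, Hey1 among them, thus passed the minimum only through day 6, which required a higher level there. Rbpj, the DNA-binding factor of the pathway, was lower (27.4 at day 6 and 71.7 at 24 h, -1.39 (-1.43 to -1.34)). The summed RPKM of the 20 Notch genes listed was 103 at day 6 and 108 at 24 h.

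Oncofetal growth genes and imprinted genes were mostly higher. Of 20 genes around Lin28, Myc and the insulin-like growth factors, 14 were higher (70.0%, against 27.5% of all genes compared) and 1 lower, with a median log2 fold of 1.82. The summed RPKM of that list was 1100 (ES cells), 409 (24 h), 875 (day 6), 2666 (day 10) and 3981 (day 14) in shLuc libraries, so day 6 lay below ES cells. Igf2, a fetal growth factor expressed from the paternal allele (chr7:149836673-149852721), had 37.4 at day 6 and 1.3 at 24 h (4.74 (4.47 to 5.01)), and the neighboring noncoding RNA H19 had 6.67 at day 6 and 0.279 at 24 h (4.16 (3.57 to 4.75)). Igfbp5 had 4.46 (1688 reads) at day 6 and 0.0178 (2 reads) at 24 h, a log2 fold of 5.28 (4.79 to 5.48). Igf2, H19 and Igfbp5 passed the minimum only through day 6, which required a higher level there. Myc was the lower gene, with 6.84 at day 6 and 42.0 at 24 h (-2.60 (-2.71 to -2.49)). Its relative Mycn had 83.8 at day 6 and 51.7 at 24 h.

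Of 22 imprinted genes 13 were higher (59.1%, against 27.5% of all genes compared) and 3 lower (13.6%, against 7.22%). Their median log2 fold was 1.73. It was 0.88, over 18 of them, once folds were freed of a trend on base composition and transcript length. The noncoding RNAs Meg3 (3.29) and Rian (3.21) of one cluster were both higher, and Cdkn1c, the cell cycle inhibitor p57, was lower with 10.8 at day 6 and 90.1 at 24 h (-3.05 (-3.15 to -2.96)). Plagl1 (-2.13) and Phlda2 (-1.10) were the other lower members. Igf2 had an RPKM of 1.64 (ES cells), 1.3 (24 h), 37.4 (day 6), 1214 (day 10) and 2729 (day 14).

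Other lineages were little represented. Of 20 cardiac genes, 1 reached the minimum (Actc1, 3.21 at day 6 and 0.0375, 1 read, at 24 h), and Nkx2-5 had 0.102 at day 6 and 0.0342 at 24 h. Of 30 blood and endothelial genes 6 were measured, 4 higher (3 after centring) and none lower. Myb, Flt1 and Etv2 passed the minimum only through day 6, which required a higher level there: Myb had 25.8 at day 6 and 0.717 at 24 h (4.98 (4.63 to 5.35)), Flt1 3.42 at day 6 and 0.174 at 24 h and Etv2 3.21 at day 6 and 0.497 at 24 h, while Gata1 had 0.06 at day 6 and 0.0864 at 24 h and the embryonic globin Hbb-bh1 had 0 reads in both. Of 25 neural genes 9 were measured, 3 higher (33.3%, against 27.5% of all genes compared) and 5 lower (55.6%, against 7.22%). Nes (nestin) had 15.5 at day 6 and 0.892 at 24 h (3.97 (3.72 to 4.23)) and Pax6 6.72 at day 6 and 0.98 at 24 h (2.66 (2.29 to 3.04)), whereas Tubb3, a tubulin of neurons, had 6.17 at day 6 and 14.6 at 24 h (-1.23 (-1.39 to -1.06)) and Sox1 4.33 at day 6 and 3.39 at 24 h.

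Of 39 Hox genes, 2 reached the minimum, both through the 24 h library. Hoxa10 had 0.365 at day 6 and 11.8 at 24 h (-4.68 (-5.02 to -4.33)), against 0.166 in shLuc ES cells and 0.685 in shSmyd5 EBs at 24 h. Hoxd13 had 0.418 at day 6 and 4.01 at 24 h. Trophoblast genes gave 4 of 5 higher, but these were Krt18, Krt8, Tfap2c and Eomes, which other epithelia or the streak also express, and Cdx2 and Elf5 stayed under the minimum. Germ cell genes were split, with 5 of 15 higher (33.3%, against 27.5% of all genes compared) and 5 lower (33.3%, against 7.22%). With TMM scaling 4 were higher and 6 lower. Tfap2c (2.997), Prdm1 (2.45) and Dppa3 (2.10) are known from primordial germ cells and were higher, while Dazl (-2.75) and the meiotic gene Hormad1 (-3.29) were lower.

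Fibroblast markers were examined since feeder cells had been used upstream. Of 20 listed, 4 reached the minimum (Mmp2, Tagln, Fbln1 and Thy1, 3 of them higher), and their list summed to an RPKM of 34.8 at day 6 and 12.8 at 24 h. Of the 7 fibroblast genes in the marker list, Thy1 had 4.93 at day 6 and 2.46 at 24 h. Dcn had 1.00 at day 6 and 0.248 at 24 h. The other 5 were under 1 in both libraries: Col1a1 had 0.363 at day 6 and 0.499 at 24 h, Col1a2 0.449 at day 6 and 0.375 at 24 h, Col3a1 0.00835 at day 6 and 0.131 at 24 h, Lum 0 at day 6 and 0.0502 at 24 h, and Postn 0.0338 at day 6 and 0 at 24 h. Of 19 collagens outside type IV, 2 were measured and neither passed 2-fold.

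Most members of housekeeping groups lay within 2-fold. Of 36 DNA replication genes 1 was higher and none lower, with a median log2 fold of -0.14. The median was -0.37 after centring and -0.53 with TMM scaling, each with 4 genes lower. Pold1 was the higher gene (1.51), and Pcna had 232 at day 6 and 439 at 24 h (-0.92 (-0.96 to -0.89)). Of 23 G1 regulators and p53 targets 2 were higher, Phlda3 (1.57) and the CDK inhibitor Cdkn1b (p27, 1.39), and 2 lower, Cdkn1c and Cdkn2a (-1.09). Each count was 8.7% of the list, against 27.5% higher and 7.22% lower of all genes compared. The median of that list was 0.08 but -0.16 after centring and -0.32 with TMM scaling. Polycomb subunits had a median of 0.03, which became -0.21 and -0.37 under the same changes: Phc2 (2.32), Pcgf5 (2.29) and Ezh1 (2.19) were higher, and Eed, a core subunit of PRC2, was lower with 54.1 at day 6 and 165 at 24 h (-1.61 (-1.65 to -1.56)).

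Ribosomal protein genes, of which 78 were measured, had a median log2 fold of 0.25, or 0.02 after centring, -0.14 with TMM scaling and 0.84 once folds were freed of a trend on base composition and transcript length, so both sign and size rested on the setting. Of these, 16 were higher (20.5%, against 27.5% of all genes compared) and 4 lower. Rpl10l, an intronless relative of Rpl10, was the lowest with 7.98 at day 6 and 182 at 24 h (-4.49 (-4.63 to -4.36)), and reads of this family may be shared with pseudogenes. Respiratory chain subunits had 14 of 60 lower (23.3%, against 7.22% of all genes compared), 2 higher (3.33%, against 27.5%) and a median of -0.43. Ndufb6, a complex I subunit, had 60.6 at day 6 and 220.1 at 24 h (-1.86 (-1.95 to -1.77)). The median of this list was -0.66 after centring, -0.82 with TMM scaling and 0.00 in folds freed of the same trends.

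Cholesterol synthesis genes were higher for 12 of 20 (60.0%, against 27.5% of all genes compared), with none lower, but most lay just above 2-fold. Srebf2, the regulator of the pathway, had 27.6 at day 6 and 7.08 at 24 h (1.95 (1.83 to 2.07)), and Fdps had 25.5 at day 6 and 9.8 at 24 h. After centring 5 of the 12 passed 2-fold, and with TMM scaling 1 did. Of 16 SMYD and heterochromatin methylation genes, Suv39h1 (1.62) and Cbx3 (1.28) were higher (12.5%, against 27.5% of all genes compared) and none was lower. With TMM scaling 1 was higher and 1 lower, and Cbx3 fell under 2-fold (0.89). Smyd5 had 15.4 at day 6 and 10.7 at 24 h, a log2 fold of 0.52 (0.39 to 0.66).

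The same step was read from the shSmyd5 EBs, whose 2 libraries are separate from the shLuc ones. There 1746 of 9132 genes (19.1%) were at least 2-fold higher at day 6 and 1911 (20.9%) lower. Over the 8535 genes at or above the minimum in both comparisons, 2067 were higher in shLuc EBs and 1487 in shSmyd5 EBs, and 1034 in both (50.02% of the shLuc and 69.5% of the shSmyd5 genes). Lower were 606 in shLuc and 1700 in shSmyd5 EBs, and 387 in both (63.9% of the shLuc and 22.8% of the shSmyd5 genes). Opposite calls were few, with 103 genes higher in shLuc and lower in shSmyd5 EBs and 14 the reverse. Across these genes the folds had a rank correlation of 0.574, given as a description since genes are no replicates. With 1 library per condition the difference between the steps was not tested.

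**Figure D4:**
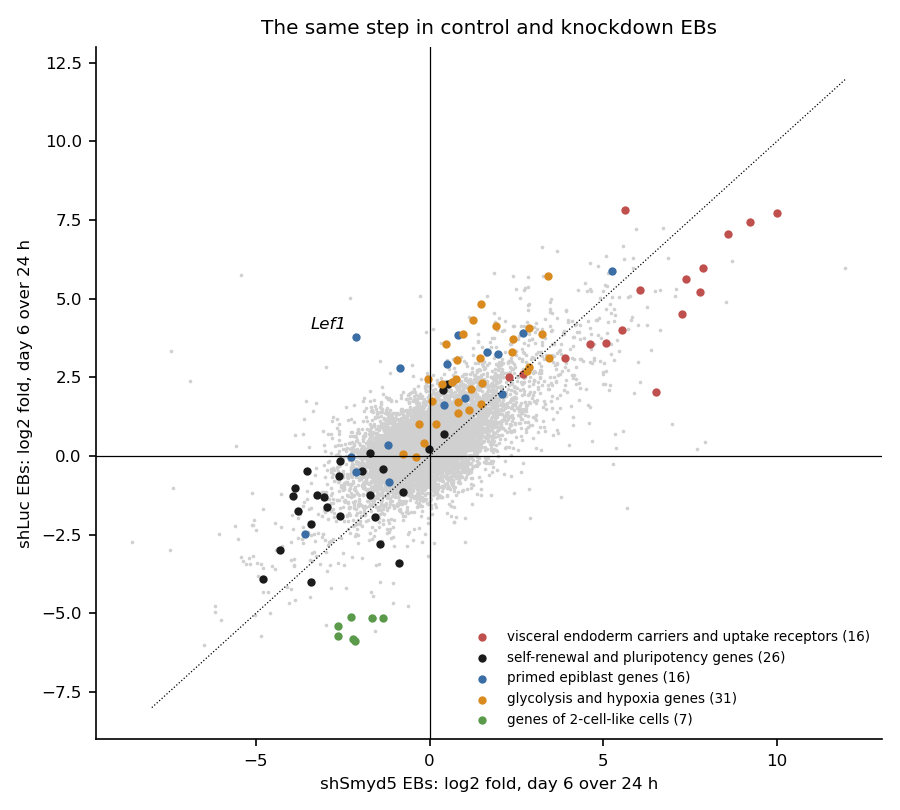
Log2 fold, day 6 over 24 h, in shLuc EBs (vertical) against shSmyd5 EBs (horizontal), with all genes in grey, 5 lists in color and a dotted line of equal folds. Visceral endoderm carriers are high in both, glycolysis and hypoxia genes lie above the line, and Lef1 is 3.77 in shLuc and -2.11 in shSmyd5 EBs.

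Visceral endoderm carriers, T and Fgf5 were higher in both steps, while endoderm factors differed. Visceral endoderm carriers were higher for 16 of 16 in shLuc and 16 of 16 in shSmyd5 EBs, with median log2 folds of 4.86 (shLuc) and 6.28 (shSmyd5). T had a log2 fold of 5.23 (4.50 to 5.92) in shLuc and 6.49 (5.92 to 6.93) in shSmyd5 EBs, and Fgf5 one of 5.87 in shLuc and 5.26 in shSmyd5 EBs. For Gata6 the log2 fold was 0.75 (0.49 to 1.02) in shLuc and 2.34 (2.24 to 2.44) in shSmyd5 EBs, and its day 6 RPKM was 3.59 (shLuc) and 34.1 (shSmyd5). The 6 endoderm factors measured were 2-fold higher for 3 in shLuc EBs and for 6 in shSmyd5 EBs.

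Pluripotency genes differed in size. The median log2 fold of the 26 genes was -1.24 in shLuc and -2.58 in shSmyd5 EBs, with 16 genes lower in shLuc and 20 in shSmyd5 EBs. The log2 fold of Pou5f1 was -0.16 (-0.21 to -0.11) in shLuc and -2.58 (-2.64 to -2.53) in shSmyd5 EBs, and that of Nanog -0.46 (-0.53 to -0.40) in shLuc and -1.95 (-2.05 to -1.86) in shSmyd5 EBs. Klf4 had the larger fold in shLuc EBs, at -3.41 (-3.54 to -3.28), and -0.88 (-0.94 to -0.82) in shSmyd5 EBs. The day 6 RPKM of Pou5f1 was 126 (shLuc) and 35.2 (shSmyd5).

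Primed epiblast genes were 11 higher and 1 lower of 16 in shLuc and 6 higher and 6 lower of 16 in shSmyd5 EBs. Their medians were 2.39 (shLuc) and 0.45 (shSmyd5). Of all 9385 genes compared, 2583 were higher and 678 lower in shLuc, and 1724 higher and 1785 lower in shSmyd5 EBs. Dnmt3b had log2 folds of 3.83 (3.75 to 3.92) in shLuc and 0.81 (0.77 to 0.85) in shSmyd5 EBs, and Otx2 of 2.91 (2.79 to 3.04) in shLuc and 0.49 (0.42 to 0.57) in shSmyd5 EBs. Glycolysis and hypoxia genes were higher for 28 of 31 in shLuc and 16 of 31 in shSmyd5 EBs, with medians of 2.44 (shLuc) and 1.14 (shSmyd5). Tpi1 had a 24 h RPKM of 18.2 (shLuc) and 93.1 (shSmyd5) and a day 6 RPKM of 218 (shLuc) and 129 (shSmyd5). DNA replication genes were lower for none in shLuc EBs and for 19 of 36 in shSmyd5 EBs. Of all 9385 genes compared, 678 were lower in shLuc and 1785 in shSmyd5 EBs. After centring, 4 of the 36 were lower in shLuc EBs, and the shSmyd5 count was not centred. The median log2 fold of genes that reached the minimum in both libraries of a step was 0.23 in shLuc and -0.14 in shSmyd5 EBs.

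The rank correlation between log2 fold and GC content was 0.198 in shLuc and -0.150 in shSmyd5 EBs, and that with transcript length 0.247 in shLuc and 0.202 in shSmyd5 EBs. These were taken over the 9004 genes whose transcript sequence was at hand, and genes are no independent replicates. Folds that involve the shLuc ES library followed GC content far more closely: the correlation was 0.765 for ES cells over 24 h and -0.6655 for day 6 over ES cells. In the 10 groups of genes ordered by GC content, the shLuc median ran from 0.21 (median GC 39.9%) to 0.89 (59.4%). Freed of both trends, 2069 of 9004 genes were 2-fold higher and 538 lower. T (5.17), Fgf5 (5.97), Afp (7.65), Zfp42 (-2.72) and Bnip3 (4.52) kept log2 folds beyond 2 in size on that scale, while Gata6 had 0.15. Of 227 genes named by rule, 19 crossed the 2-fold line.

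**Figure D5:**
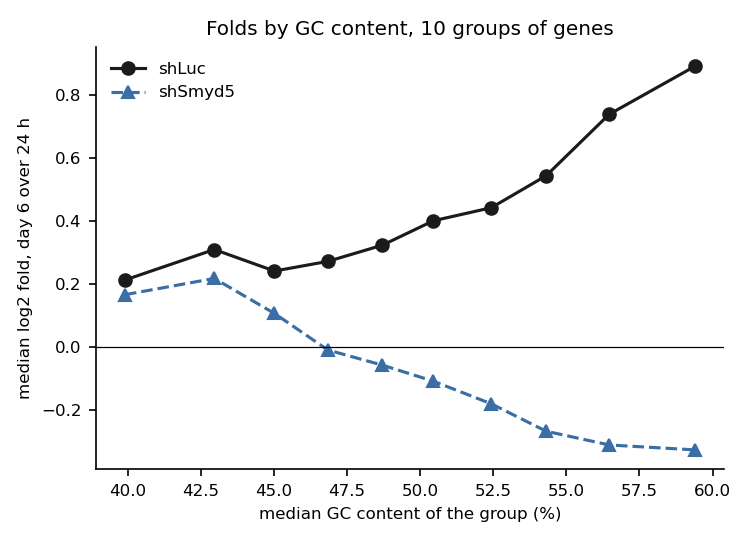
Median log2 fold, day 6 over 24 h, in 10 groups of about equal size ordered by GC content of the transcript (%), shLuc as solid line and shSmyd5 as dashed line. The shLuc median runs from 0.21 in the group of lowest GC to 0.89 in the group of highest GC, and the shSmyd5 median ends at -0.33.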

How the data were processed

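Control (shLuc) EBs at day 6 and 24 h were compared, 1 polyA library each, sequenced by the authors on Illumina GAIIX or HiSeq instruments. Per the labels, CASAVA and Bowtie2 and the mm9 build were used (versions not given in the sources used here). The deposited tables list 29257 RefSeq transcripts with the read count, the RPKM value the authors computed from it and other columns such as transcript length. For all values over 200 reads, the RPKM lay within 1% of what reads, length and library size give. Strand is unknown, since adapters were added to double-stranded cDNA. For the 4019 symbols with several transcripts the one with the highest mean reads over the 10 libraries was used. Intervals were exact binomial at 95%, and bounds used 3 reads. The study's edgeR test needs replicates, so it served only as an alternative with an assumed spread. Positions came from GENCODE M1 on NCBIM37 (1 gene for 21527 symbols), GC content from its transcripts (20234 symbols), promoters from RefSeq. Named genes were the 12 highest and 12 lowest folds at an RPKM of at least 10 and 50 reads, up to 4 highest and 4 lowest members of each of 33 lists, and defining regulators; fibroblast and globin genes came from the marker list. Acvr2b, Apoa4, Cdx2, Dab2, Dnmt1, Elf5, Foxh1, Gapdh, Lefty1, Lefty2, Mycn, Pou3f1, Slc2a1 and Tpi1 were chosen after their values were seen. Not every gene under this rule is described, and 1 of the 12 highest folds is not reported here. Members, lists and settings were chosen with earlier results of these data known. The fold and count steps were tested on simulated data. The interval was tested there without the added 0.1, not in the form printed here. R 4.3.3 with edgeR 4.0.16 and Python 3.11.15 with scipy 1.17.1, pandas 2.3.3, scikit-learn 1.9.0, numpy 2.4.6 and matplotlib 3.10.9 were used.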

Additional observations from a re-analysis of the deposited data

Results flagged for a closer look

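The step from 24 h to day 6 had opposite directions in shLuc and shSmyd5 EBs, at least 2-fold in each, for 4 of the 234 genes named by rule. Each fold rests on 1 library per side, the difference was not tested, and a cause was not tested. Lef1, a nuclear factor of Wnt signaling, had a log2 fold of 3.77 in shLuc and -2.11 in shSmyd5 EBs. Its day 6 RPKM was 16.9 (shLuc) and 6.09 (shSmyd5) and its 24 h RPKM 1.14 (shLuc) and 26.5 (shSmyd5), so the 24 h libraries held the larger gap. Foxa1, a forkhead factor of endoderm, had -1.07 in shLuc and 2.87 in shSmyd5 EBs, with a day 6 RPKM of 1.4 (shLuc) and 6.24 (shSmyd5) and a 24 h RPKM of 3.04 (shLuc) and 0.765 (shSmyd5). Cbx2, a Polycomb subunit, had 1.46 in shLuc and -1.67 in shSmyd5 EBs, with a day 6 RPKM of 6.93 (shLuc) and 1.5 (shSmyd5) and a 24 h RPKM of 2.46 (shLuc) and 4.98 (shSmyd5). Fdps, farnesyl diphosphate synthase of the cholesterol pathway, had 1.37 in shLuc and -1.49 in shSmyd5 EBs, with a day 6 RPKM of 25.5 (shLuc) and 10.0 (shSmyd5) and a 24 h RPKM of 9.8 (shLuc) and 28.4 (shSmyd5). Freed of the trend on GC content and transcript length, the shLuc fold of Cbx2 was 0.70, under 2-fold.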

How the results depend on the processing

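No paired analysis was possible because the labels give no replicate numbers and each condition had 1 library, and for the same reason no replicate could be left out. The 2583 genes at least 2-fold higher at day 6 became 1116 at an RPKM of at least 10, 5155 with no filter on low values and 1696 with TMM scaling. With a 2-fold difference and an edgeR exact test under an assumed biological coefficient of variation they were 813 (0.2) and 115 (0.4). The 678 lower genes became 1621 with no filter, 1183 with TMM scaling and 51 with an assumed variation of 0.4. Fewer or more genes are tested by construction in the filter settings, and the assumed variation stands in for replicates that were not had. Under the other settings (a pseudocount of 1 or 0.01, an RPKM of at least 1, the longest transcript, centring, and folds freed of GC content and length) the counts stayed within 1.5 times, from 2011 to 3724 higher and from 538 to 936 lower. The median log2 fold was 0.23, or 0.08 when both libraries had to reach an RPKM of 10. Of the 234 genes named by rule, 165 were at least 2-fold in the main setting, and 0 of these changed sign. Another pseudocount, centring or TMM scaling could not turn the sign of such a gene, so for these settings the 0 was fixed in advance. Only the longest transcript and the folds freed of GC content and length (159 such genes) could have shown a change. The filter settings were not applied to named genes. With TMM scaling 24 crossed the 2-fold line, with centring 10 (Smad1 among them), with a pseudocount of 1 it was 8 (Esrrb, Fgf17 and Foxa1 among them), and freed of GC content and length 19 of 227 (Notch1 and Cbx2 among them). Genes with few reads at 24 h, such as Ttr and Cldn7 (1 read each), have wide intervals. Their upper limits depend on the added 0.1 as well as on depth. With a pseudocount of 0.01 the log2 fold of Cldn7 was 8.74, above the interval given for it.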
